A study of Homo sapiens with 2 samples.

Results

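The alpha-arrestins and the MLX, Mondo and MXD transcription factors were followed in hNCI-H716 cells, a human cecal adenocarcinoma line that serves as a model of the L-cell, the enteroendocrine cell that releases glucagon-like peptide-1. The list holds 10 genes. TXNIP and ARRDC4 were chosen by the size of their difference between the same libraries described here, and ARRDC1, ARRDC2, ARRDC3, MLXIP, MLXIPL, MLX, MNT and MXD4 because they belong to the same families. All 10 had a row among the 19989 genes of the table. The line, which grows in suspension in RPMI, was attached to Matrigel and then kept for 48 h in serum-supplemented DMEM that held either 5.5 mM glucose (low) or 25 mM glucose (high), and poly(A)-selected RNA of 1 library per concentration was sequenced. The glucose concentration is the difference named in the labels, and both libraries shared the line, the attachment step and the other additives named there. Since there was no second culture at either concentration, no difference below has a replicate check, no p-value was computed, and any other difference between the cultures cannot be told apart from glucose.

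Cells sense glucose at the level of the gene through the Mondo proteins. MLXIP (MondoA) and MLXIPL (ChREBP) respond to glucose 6-phosphate, join the common partner MLX, and bind carbohydrate response elements, which are pairs of E-box-like sites set a fixed distance apart. TXNIP and ARRDC4 are well known targets of these complexes. Both encode alpha-arrestins, adaptors that bring ubiquitin ligases of the NEDD4 family to membrane proteins; TXNIP also binds thioredoxin and drives the removal of glucose transporters from the cell surface, so that it limits glucose entry. MNT and MXD4 are repressors that pair with MAX or MLX at E-boxes.

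The regions upstream of TXNIP and ARRDC4 are shown because these were the members with the largest log2 ratios. They are the 250 bases before the first RefSeq start listed for each gene on GRCh38.p14, written 5′ to 3′ on the strand of the gene. Capitals mark E-box-like sites (CACGNG on either strand, which includes the E-box CACGTG) and CCAAT boxes (CCAAT or ATTGG), the site of the factor NF-Y. The TXNIP stretch lies at chr1:145996580-145996829 on the minus strand, and the ARRDC4 stretch at chr15:97960453-97960702 on the plus strand.
TXNIP: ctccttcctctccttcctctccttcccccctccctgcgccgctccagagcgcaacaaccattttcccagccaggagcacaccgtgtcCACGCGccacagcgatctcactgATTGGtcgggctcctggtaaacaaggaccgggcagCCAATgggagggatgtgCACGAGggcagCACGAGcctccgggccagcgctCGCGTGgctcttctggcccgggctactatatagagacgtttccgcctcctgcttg
ARRDC4: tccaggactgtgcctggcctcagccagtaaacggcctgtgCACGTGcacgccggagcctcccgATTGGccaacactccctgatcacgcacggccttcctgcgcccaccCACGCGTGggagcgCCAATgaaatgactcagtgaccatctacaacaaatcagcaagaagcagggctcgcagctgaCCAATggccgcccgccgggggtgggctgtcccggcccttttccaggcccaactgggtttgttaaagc

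The TXNIP stretch held a tandem pair, 2 E-box-like sites with 5 bases between them, from 88 to 72 bases before the start. It is shown on its own, with the sites in capitals (chr1:145996651-145996667, minus strand).
TXNIP tandem pair: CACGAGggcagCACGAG

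A tandem pair in any orientation of the sites was found in 27 of the 35116 RefSeq windows of the same kind (250 bases before to 50 after a start), or 0.0769%. The TXNIP window also held 4 E-box-like sites in all, including those of the pair, and 2 CCAAT boxes. At least 4 such sites were found in 0.524% of windows, and at least 2 CCAAT boxes in 10.8%. The ARRDC4 window held no tandem pair in these letters. It had 1 E-box, beginning 210 bases before the start, where 7.26% of windows hold at least 1. It had 3 E-box-like sites in all, a number reached by 1.98% of windows, and the 2 nearest to the start overlap. It also had 3 CCAAT boxes, a number reached by 3.26% of windows. Among the other members, MLX, MNT and MXD4 each had 1 E-box. ARRDC2 had 3 E-box-like sites before its first listed start and none before its second, and ARRDC3 had none and 1. The MLXIP, MLXIPL and ARRDC1 windows had no E-box-like site, where 30.5% of windows hold at least 1. CCAAT boxes were not particular to TXNIP and ARRDC4. MXD4 had 2, MLX, MLXIP and ARRDC1 had 1 each, and ARRDC2 and ARRDC3 had 1 before 1 of their 2 listed starts. MNT and MLXIPL had none, and 34.6% of windows hold at least 1. The second listed start of TXNIP had no match of any kind. These matches describe the reference sequence, and no binding was measured in these cells.

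**Figure D1:**
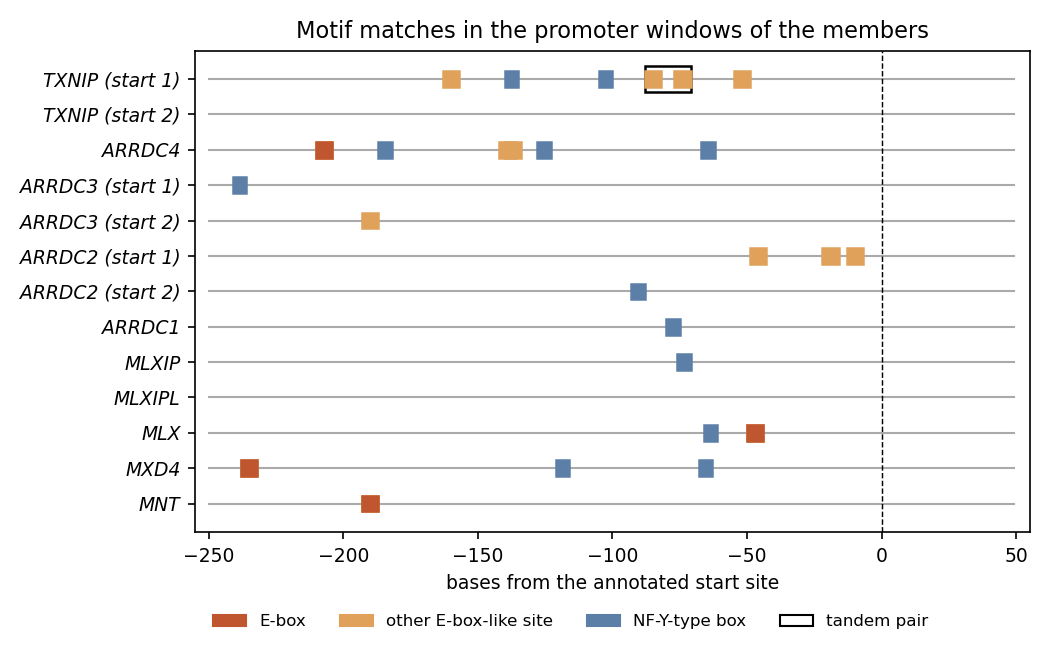
Motif matches in the 13 promoter windows of the 10 genes, by distance in bases from the annotated start (dashed line). The first TXNIP window is the only window among these with a tandem pair (open black box), and the ARRDC4 window has 1 E-box and 3 NF-Y-type boxes (CCAAT).

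TXNIP and ARRDC4 were far higher in the high glucose library. Levels are given as CPM, the estimated counts of a gene relative to the total of its library, and each interval is a 95% interval from counting error alone. TXNIP (ENSG00000265972.5; chromosome 1 of GRCh38, 145992435 to 145996600, minus strand) was at 12.7 CPM at 5.5 mM glucose (11.2 to 14.2, from 275 estimated counts) and at 89.9 CPM at 25 mM glucose (85.8 to 94.2, from 1752 estimated counts). Its level was 7.10 times as high in the high glucose library (6.25 to 8.10), a log2 ratio of 2.83 (2.64 to 3.02). ARRDC4 (ENSG00000140450.8; chromosome 15, 97960698 to 97973838, plus strand) was at 19.1 CPM at 5.5 mM glucose (17.3 to 21.0, from 414 estimated counts) and at 60.9 CPM at 25 mM glucose (57.5 to 64.5, from 1187 estimated counts). This was 3.20 times as high (2.86 to 3.58), a log2 ratio of 1.68 (1.51 to 1.84). For both genes the intervals of the libraries lay far apart, and the interval of the ratio of TXNIP lay above that of ARRDC4. In bulk RNA, more cells with the transcript and more transcript per cell cannot be told apart. TXNIP and ARRDC4 were selected on this contrast, so the size of these values describes the choice and is no finding by itself.

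**Figure D2:**
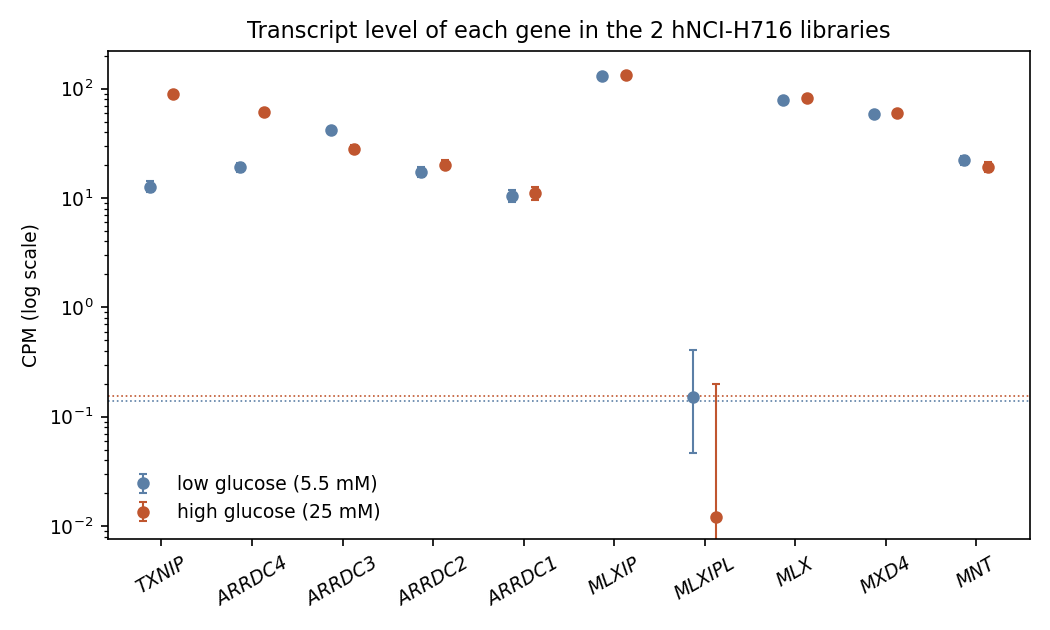
CPM (log scale) of each gene in the low glucose (blue) and high glucose (orange) library, with 95% Wilson intervals of counting error; the dotted lines mark the CPM that 3 counts are worth in each library. TXNIP and ARRDC4 are separated between the libraries, MLXIP, MLX and MXD4 nearly coincide, and MLXIPL lies near or below the dotted lines.

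Among the 13052 genes that averaged 1 CPM or more, 0.215% were higher in the high glucose library by a log2 ratio of at least 1, and 0.621% were lower by as much. Of the 10 members, 9 reached a mean of 1 CPM, and of these TXNIP and ARRDC4 were higher by that much and 0 were lower. TXNIP ranked 3 and ARRDC4 ranked 8 from the top of the log2 ratios of these genes. Among the 9345 genes averaging at or above 10 CPM, which include the 9 members, they ranked 1 and 2. The central 90% of the 9345 log2 ratios ran from -0.26 to 0.23, with a median of 0.01. ARRDC3 also lay outside that range, and the other 6 members lay inside it.

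**Figure D3:**
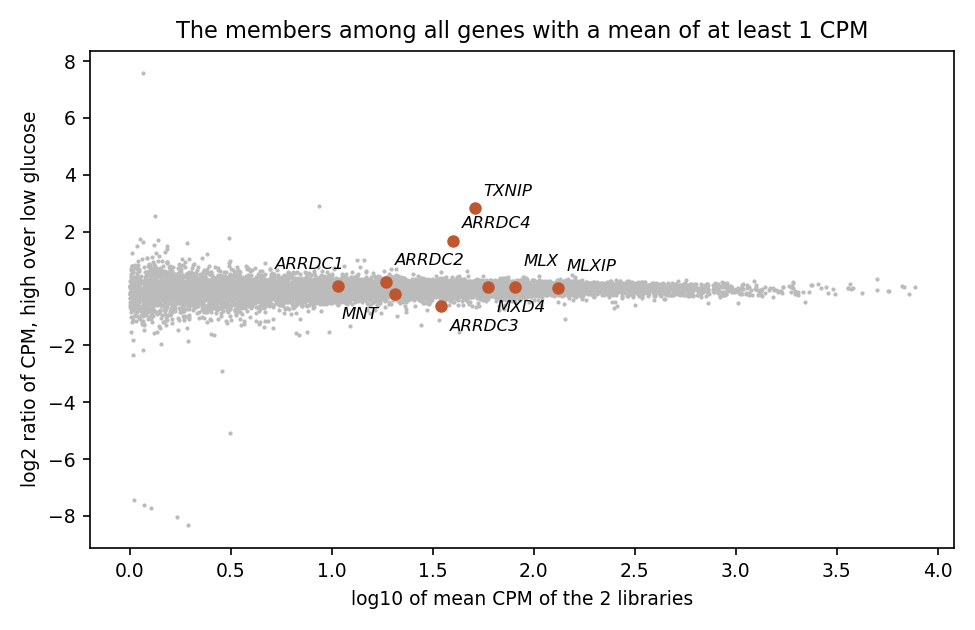
Log2 ratio of CPM (high over low glucose) against the log10 of the mean CPM for the 13052 genes averaging at or above 1 CPM (grey), with the 9 members that passed this filter in orange. TXNIP at 2.83 and ARRDC4 at 1.68 stand above the genes of like level, and ARRDC3 at -0.60 lies at the lower edge of the cloud.

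The genes whose log2 ratio came nearest to that of TXNIP, among those averaging 10 CPM or more, were ARRDC4 and then MAGEA2B and RP5-900K19.2, both at 1.01. These were followed by CTD-2021K4.1 at 0.80 and BCL2L2-PABPN1 at 0.76. The genes nearest to ARRDC4 were these last 4 and AC005538.2 at 0.71. MAGEA2B has a near-identical copy and BCL2L2-PABPN1 is a readthrough of its neighbours, so the counts of both depend on how shared reads were divided. Likeness here is the distance between log2 ratios over 2 libraries, so that it ranks genes by 1 number. ARRDC4 was 1.15 from TXNIP and MAGEA2B 0.66 from ARRDC4 on the log2 scale, distances that follow from the choice of TXNIP and ARRDC4 by this ratio.

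The remaining alpha-arrestins differed far less, and ARRDC3 in the other direction. ARRDC3 (chromosome 5, 91368724 to 91383359, minus strand), which has been described as a regulator of beta-adrenergic receptors, was at 42.1 CPM at 5.5 mM glucose (39.4 to 44.9, from 914 estimated counts) and at 27.8 CPM at 25 mM glucose (25.5 to 30.2, from 541 estimated counts). This is a log2 ratio of -0.60 (-0.76 to -0.44). ARRDC2 (chromosome 19, 18001132 to 18014102, plus strand) was at 17.2 CPM (15.6 to 19.1) and 20.1 CPM (18.2 to 22.2), a log2 ratio of 0.22 (0.02 to 0.43). ARRDC1 (chromosome 9, 137605654 to 137615360, plus strand), which recruits the budding machinery to the plasma membrane, was at 10.4 CPM (9.13 to 11.9) and 11.05 CPM (9.65 to 12.6). Its log2 ratio was 0.08 (-0.19 to 0.36), and a difference was not detectable with these counts. ARRDC5, the sixth gene of the family, had no row. The more distant beta-arrestins, which quench G protein-coupled receptors, were both well expressed. ARRB1 was at 60.2 and 71.8 CPM in low and high glucose, a log2 ratio of 0.26 (0.15 to 0.36), and ARRB2 was at 70.1 and 67.2 CPM, a log2 ratio of -0.06 (-0.17 to 0.05). Of the visual arrestins, SAG had 1 estimated count in each library and ARR3 had no row.

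Counting intervals alone call many genes in these libraries. The interval of the log2 ratio lay above 0 for 15.8% and below 0 for 16.0% of the 13052 genes. Of the 9 members that averaged 1 CPM or more, it lay above 0 for TXNIP, ARRDC4 and ARRDC2, below 0 for ARRDC3 and MNT, and included 0 for ARRDC1, MLXIP, MLX and MXD4. For ARRDC2 and MNT the interval ended 0.02 and 0.01 from 0 on the log2 scale.

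**Figure D4:**
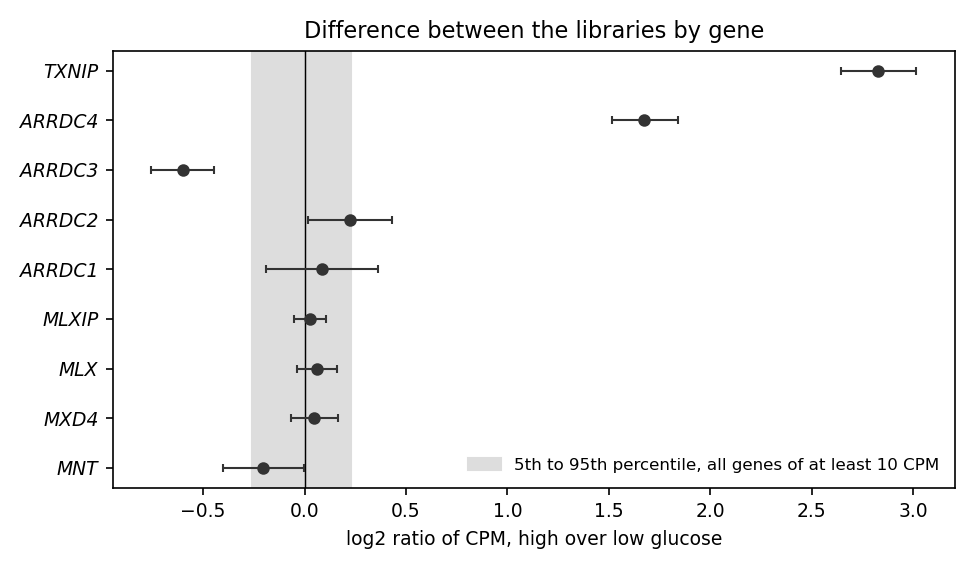
Log2 ratio of CPM (high over low glucose) of the 9 members that averaged 1 CPM or more, with exact binomial 95% intervals of counting error; the grey band is the 5th to 95th percentile of the 9345 genes averaging at or above 10 CPM. TXNIP, ARRDC4 and ARRDC3 lie outside the band and the other 6 inside it.

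With these differences the make-up of the alpha-arrestin transcripts shifted between the libraries. TXNIP and ARRDC4 were selected on this contrast. The shift towards them, in share, sum and rank, therefore describes that choice and is no finding about the family. TXNIP and ARRDC4 together gave 689 of 2203 alpha-arrestin counts at 5.5 mM, or 31.3% (Wilson interval 29.4 to 33.2), against 2939 of 4087 at 25 mM, or 71.9% (70.5 to 73.3). Their summed level went from 31.7 to 150.9 CPM, 4.75 times as high, while that of ARRDC1, ARRDC2 and ARRDC3 went from 69.7 to 59.0 CPM. Longer transcripts give more reads, so genes were set against each other as CPM per kb of the principal GENCODE transcript. On that scale ARRDC3 was the most abundant alpha-arrestin in low glucose, at 10.0 CPM per kb, 30.9% of the family, and TXNIP the least, at 4.33 CPM per kb, 13.3% of the family. In high glucose TXNIP was the most abundant, at 30.7 CPM per kb, 45.6% of the family, and ARRDC3 the least, at 6.63 CPM per kb, 9.85% of the family, although its interval overlapped that of ARRDC1. With all exons merged as the length, ARRDC1 was the least abundant in both libraries, at 2.73 and 2.89 CPM per kb, and TXNIP was still the most abundant at 25 mM, at 24.8 CPM per kb. TXNIP was thus at 0.431 times the level of ARRDC3 per kb in low glucose and at 4.63 times in high glucose. TXNIP and ARRDC4 stood close to each other in low glucose, with overlapping intervals and a ratio of 0.925 per kb, and TXNIP was at 2.05 times ARRDC4 in high glucose. With merged exons TXNIP (3.50, 3.10 to 3.93 CPM per kb) lay below ARRDC4 (4.68, 4.25 to 5.15) in low glucose, with no overlap.

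**Figure D5:**
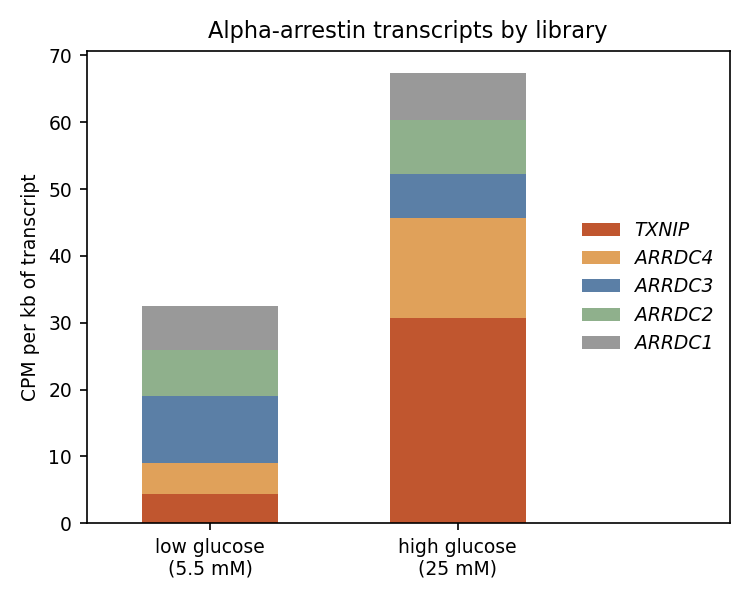
CPM per kb of principal transcript for the 5 alpha-arrestins with a row, stacked by library. The stack is taller in high glucose (67.3 against 32.5 CPM per kb). TXNIP with ARRDC4, selected on this contrast, fill 67.9% of it, against 27.7% in low glucose.

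The glucose-sensing factors themselves stood nearly level between the libraries. MLXIP (chromosome 12, 122078722 to 122147347, plus strand), the Mondo protein known from muscle and many dividing cells, was at 131.3 CPM at 5.5 mM glucose (126.5 to 136.2) and 133.7 CPM at 25 mM glucose (128.7 to 139.0), a log2 ratio of 0.03 (-0.05 to 0.10). Its partner MLX (chromosome 17, 42567068 to 42573239, plus strand) was at 79.2 CPM (75.6 to 83.0) and 82.8 CPM (78.8 to 86.9), a log2 ratio of 0.06 (-0.04 to 0.16). The upper ends of these intervals correspond to ratios of 1.07 and 1.12. MLXIPL (chromosome 7, 73593194 to 73624543, minus strand), the Mondo protein known from liver and fat, had 3 estimated counts at 5.5 mM and 0 at 25 mM. Its level was 0.150 CPM at 5.5 mM glucose (0.0470 to 0.406), and its 0 counts at 25 mM were taken as at most 3 counts, or 0.154 CPM. Both libraries were at or under 3 counts, so no ratio is given for it. Per kb, MLXIP was 370 times as abundant as MLXIPL in low glucose, with a counting interval of 126 to 1794, and in high glucose it stood at 338 times the level that 3 counts of MLXIPL would give. Of the 2 Mondo genes, MLXIP accounted for nearly all of the signal in either library.

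Among the repressors, MXD4 (chromosome 4, 2247432 to 2262294, minus strand) was at 58.4 CPM (55.2 to 61.7) and 60.3 CPM (56.9 to 63.8), with a log2 ratio of 0.05 (-0.07 to 0.16). MNT (chromosome 17, 2384060 to 2401118, minus strand) was at 22.1 CPM (20.2 to 24.2) and 19.2 CPM (17.3 to 21.2). Its log2 ratio was -0.20 (-0.40 to -0.01), inside the central range of all genes. Per kb, the order of the members in low glucose ran from MLX (30.6), MLXIP (15.6) and MXD4 (14.4) through ARRDC3, ARRDC2 and ARRDC1 to ARRDC4 (4.68), MNT (4.43) and TXNIP (4.33), with MLXIPL far below. Intervals of neighbours overlapped for MLXIP and MXD4, for ARRDC2 and ARRDC1, and along ARRDC4, MNT and TXNIP. The order turned with merged exons, where ARRDC4 (4.68, 4.25 to 5.15) lay above ARRDC2 (3.72, 3.35 to 4.11) and ARRDC1 (2.73, 2.39 to 3.10). TXNIP (3.50) then lay above MNT (2.54) and overlapped ARRDC2, and ARRDC3 (8.53) overlapped MXD4 (8.27), so the order of these genes rests on the length used. In high glucose TXNIP (30.7) overlapped MLX (32.0) at the top (24.8 and 19.4 with merged exons), ARRDC4 (14.96) overlapped MLXIP (15.9) and MXD4 (14.9) but lay above both with merged exons (14.96, 9.62 and 8.55), and MNT (3.84) was the lowest of those with more than 3 counts. Among protein-coding genes averaging at or above 1 CPM, TXNIP stood at the 29.7 percentile of CPM per kb in low glucose and at 78.8 in high glucose, and ARRDC4 at 31.5 and 61.8. The corresponding percentiles of MLXIP, 63.2 and 63.5, and of MLX, 78.8 and 79.5, were close to each other.

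In the wider MAX and MLX network of 13 genes, 12 had a row and 11 averaged 1 CPM or more. Of these 11, 0 differed by a log2 ratio of 1 in either direction, against 0.215% higher and 0.621% lower among all genes, 5 were above 0 and 6 below, and the median was -0.06. Over all 13052 genes, 6341 were above 0 and 6711 below, with a median of -0.01. MAX, the common partner of the MYC and MXD proteins, was at 127.7 and 136.1 CPM in low and high glucose, a log2 ratio of 0.09 (0.01 to 0.17). MYC was at 245.7 and 215.6 CPM, a log2 ratio of -0.19 (-0.25 to -0.13). MYCN, a paralog usually found in neural and endocrine cells, was at 7.79 and 10.6 CPM, a log2 ratio of 0.44 (0.14 to 0.74), the highest of the network. MYCL had no row.

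The partners of TXNIP and of the alpha-arrestins showed small differences. All 5 genes of the thioredoxin system averaged 1 CPM or more, with log2 ratios from -0.16 to 0.10 and a median of -0.03. TXN, the thioredoxin that TXNIP binds, was at 272.2 CPM at 5.5 mM glucose and 260.9 CPM at 25 mM glucose, a log2 ratio of -0.06 (-0.12 to -0.01). TXNRD1, the reductase that restores it, was at 385 and 412 CPM, a log2 ratio of 0.10 (0.05 to 0.14). Per kb, TXNIP was at 0.0138 times the level of TXN in low glucose and at 0.102 times in high glucose. Of 9 NEDD4-family ubiquitin ligases, 8 averaged 1 CPM or more, with log2 ratios from -0.09 to 0.15 and a median of 0.05. Only ITCH among these 8 had a counting interval that left out 0, at 87.0 and 96.7 CPM (log2 ratio 0.15, 0.06 to 0.25), where 15.8% of all genes had an interval above 0 and 16.0% one below 0.

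Other genes known to carry carbohydrate response elements or to follow the Mondo factors had log2 ratios from -0.54 to 0.59. Of 25 such genes, 18 had a row and 16 averaged 1 CPM or more; 0 of these 16 differed by a log2 ratio of 1 in either direction, against 0.215% higher and 0.621% lower by as much among all genes. Their median log2 ratio was 0.10, with 12 above 0 and 4 below, against 6341 above and 6711 below over all 13052 genes. The counting interval lay above 0 for 6 and below 0 for 2 of the 16, against 15.8% and 16.0% of all genes. KLF10, a glucose-responsive repressor, was the highest, at 27.7 CPM at 5.5 mM glucose (25.5 to 29.97) and 41.6 CPM at 25 mM glucose (38.9 to 44.6), a log2 ratio of 0.59 (0.44 to 0.74). BHLHE40, an E-box repressor that is also part of the clock, was the lowest, at 166.5 and 114.6 CPM, a log2 ratio of -0.54 (-0.62 to -0.46). Among the genes of fatty acid synthesis on the list, ELOVL6 (0.31), ACACA (0.23), SCD (0.16) and ACLY (0.08) lay above 0 beyond counting error. FASN lay below 0 beyond it, at -0.04 (-0.076 to -0.005), and the interval of ACACB included 0. The classic liver targets PKLR and G6PC had no row. Of the 27 genes with a tandem pair in a RefSeq window, 17 had a row and 16 an average of 1 CPM or more. TXNIP, selected on this ratio, is 1 of the 16. The other 15 ranged from -0.60 to 0.16 with a median log2 ratio of -0.01, and 0 of them reached 1, as 0.215% of all genes did.

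On a list of glucose uptake and phosphorylation genes, which also holds the isomerase GPI, 7 of 10 averaged 1 CPM or more. Their median log2 ratio was -0.12, with 1 above 0 and 6 below, where all genes were split 6341 to 6711. The counting interval lay above 0 for 1 and below 0 for 5 of these 7, against 15.8% and 16.0% of all genes. GPI, at -0.043 (-0.084 to -0.002), was 1 of the 5. SLC2A1, the transporter whose surface level TXNIP limits, was at 128.3 and 117.8 CPM in low and high glucose, a log2 ratio of -0.12. HK1, a hexokinase that makes glucose 6-phosphate, was at 378.8 and 412.5 CPM, a log2 ratio of 0.12, and was the 1 above 0. HK2, another hexokinase, was at 158.6 and 135.4 CPM, a log2 ratio of -0.23 (-0.30 to -0.15). HKDC1, a hexokinase, was at 17.7 and 7.04 CPM in low and high glucose, a log2 ratio of -1.33 (-1.63 to -1.05), and SLC2A3, a glucose transporter, was at 7.51 and 4.17 CPM, a log2 ratio of -0.85 (-1.25 to -0.46). The subunits of AMPK, the energy-sensing kinase that phosphorylates TXNIP, had a median log2 ratio of 0.13 over 6 genes, 5 above 0 and 1 below. The interval lay above 0 for 2 of them, against 15.8% of all genes: PRKAA1 had a log2 ratio of 0.15 (0.05 to 0.25) and PRKAA2 one of 0.17 (0.05 to 0.28). PRKAG2 was at 1.62 and 2.32 CPM, a log2 ratio of 0.52 whose interval included 0. The 7 genes averaging 1 CPM or more that encode other known regulators of TXNIP, among them the NF-Y subunits, FOXO3 and HSF1, ranged from -0.13 to 0.10. Each had an interval that included 0, where 15.8% of all genes had one above 0 and 16.0% one below 0. The NLRP3 inflammasome, to which TXNIP has been linked, was hardly measurable: of 6 genes, NLRP3, PYCARD and IL1B had no row and the others had a mean under 1 CPM.

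The libraries held 21757886 estimated counts at 5.5 mM and 19456650 at 25 mM, where 3 counts, the limit used for a count of 0, are worth 0.138 and 0.154 CPM. Of 9 L-cell markers, 8 averaged 1 CPM or more, with GCG at 1954 and 1808 CPM, a median log2 ratio of -0.03, and no row for NEUROD1. The counting interval lay above 0 for 1 of these 8 (PCSK1, log2 ratio 0.11) and below 0 for 3 (GCG and CHGA at -0.11, CHGB at -0.06), against 15.8% and 16.0% of all genes. The epithelial markers were uneven. KRT8 was at 270.0 and 290.8 CPM, but CDH1 had 1 and 3 estimated counts, and CDX1 had no row. Among 9 epithelial markers, 6 averaged 1 CPM or more, and their median log2 ratio was 0.16. The counting interval lay above 0 for 4 of the 6 (KRT8, KRT18, VIL1 and CDX2) and below 0 for 0, against 15.8% and 16.0% of all genes. CDX2 was at 30.5 and 38.2 CPM (log2 ratio 0.33, 0.17 to 0.48), VIL1 at 11.7 and 17.8 CPM (log2 ratio 0.61, 0.37 to 0.85) and KRT19 at 1.49 and 0.987 CPM (log2 ratio -0.59, -1.496 to 0.27). Of 11 markers of blood, vessel, stroma, liver, islet and muscle cells, 5 had no row and 3 had a mean under 1 CPM. ALB was the exception in level among the rest, at 456.2 and 487.0 CPM. The summed level of these 11 markers was 475.0 CPM at 5.5 mM glucose and 505.5 CPM at 25 mM glucose, and the part of these markers and of the epithelial ones in the differences of TXNIP and ARRDC4 was not tested. The kit does not mark strand, so reads of overlapping genes on opposite strands cannot be told apart. TXNIP, ARRDC4 and MLXIP share no exonic base with another GENCODE gene, whereas 18.1% of the exonic bases of MLX are shared with PSMC3IP, 12.2% of those of MNT with an antisense gene, and 9.53% of those of ARRDC2 with a gene on the opposite strand.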

How the data were processed

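RNA of hNCI-H716 cells was sequenced as paired-end reads. Per the labels and the study's methods, the authors trimmed reads with Trim Galore 0.5.0, aligned them with STAR 2.6.0 to GRCh38 with GENCODE gene models, estimated counts with RSEM 1.3.1, dropped genes whose total was under 1 count and normalized with edgeR. The deposited values are the CPM and the log2 CPM of each library; the log2 columns only served to check the CPM, and columns with the authors' mean, difference and fold were not used.

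The lowest CPM, 0.0121 in both libraries, was taken as the prior, and library totals were recovered from the steps between low values. Of the values under 10 CPM, 73.8% (low) and 74.0% (high) came out within 0.05 of a whole count, so counts are called estimated and no count model was run. The study names TMM normalization, but both CPM columns sum to 1000242, the excess being the prior, so whether they carry TMM factors is unclear. CPM were therefore divided by recomputed TMM factors (0.9985 and 1.0015), with the prior kept. Levels carry 95% Wilson intervals, and ratios exact binomial intervals on rounded counts. Intervals and the limit of 3 counts cover counting error only. List summaries left out genes averaging under 1 CPM. Coordinates and lengths came from GENCODE v29, which holds 73.4% of the symbols. The study names the release before it on the same assembly. Genes were looked up by 1 symbol each, and whether a gene without a row stands under another symbol was not checked. Promoters came from RefSeq, where all 10 members matched; protein sequences were not analysed here. Python 3.11.15, numpy 2.4.6, pandas 2.3.3, scipy 1.17.1 and matplotlib 3.10.9 were used, and the code was tested on simulated data.

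The members and lists were chosen with earlier results of these data known. Named were the 10 members, list genes above this filter whose log2 ratio reached 0.5 in size, TXN, TXNRD1, MAX and MYC, and the 5 genes nearest in ratio to TXNIP and to ARRDC4; other list genes were named after their values were seen, as was the count of genes with a tandem pair. Alternatives were library totals alone, median-of-ratios factors, removal of the prior, pseudocounts, other filters and another length.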

Additional observations from a re-analysis of the deposited data

How the results depend on the processing

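Of 204 values recomputed under an alternative, 182 stayed within the counting interval, the SD of the list or, for a count of genes, 1.5 times the count reported; 22 moved. The sign differed from the value reported in 2 of the 204, both medians near 0: the thioredoxin system went from -0.03 to 0.0047 among genes averaging 10 CPM or more, and the other TXNIP regulators from -0.0044 to 0.0043 without a filter. The log2 ratios and CPM of the 9 members that averaged 1 CPM or more were among those that stayed. The number of genes higher by a log2 ratio of at least 1, 28 here, became 7 once 1 CPM was added to each value, 1213 without a filter and 4 among genes averaging 10 CPM or more; the number lower, 81 here, was 24, 1719 and 5. TXNIP and ARRDC4 were 2 of the 7 and 2 of the 4. Both were selected on this ratio, so their place among these genes describes that choice. With merged exons in place of the principal transcript, CPM per kb in low and high glucose was 3.50 and 24.8 for TXNIP, 8.53 and 5.63 for ARRDC3, 3.72 and 4.34 for ARRDC2, 2.73 and 2.89 for ARRDC1, 9.44 and 9.62 for MLXIP, 18.6 and 19.4 for MLX, 8.27 and 8.55 for MXD4, and 2.54 and 2.20 for MNT, while ARRDC4 stayed at 4.68 and 14.96. On that length TXNIP stood above MLX in high glucose, and ARRDC1 rather than TXNIP was the lowest alpha-arrestin in low glucose and the lowest in high glucose. Depth limits MLXIPL most, with 3 and 0 counts. No paired analysis was possible because only 1 library stands for each condition.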
